A study of Mus musculus with 20 samples.

Results

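The melanocyte pigment genes described here are Tyr, Tyrp1, Dct, Pmel, Mlana, Slc45a2, Oca2, Mitf and Sox10, measured in mouse skin by every probe-set of the array to which the platform annotation gives 1 of these symbols and no other. The 9 genes have 17 such probe-sets, of 45101 probe-sets on the array and 18194 genes with a single symbol. A probe-set is a group of probes read as 1 transcript, and each gene is described at its main probe-set, the one with the highest mean over all arrays. Melanocytes make melanin in organelles called melanosomes. Tyrosinase starts the synthesis from tyrosine, TYRP1 and DCT act on later intermediates, PMEL forms the fibrils on which melanin is laid down, and the transcription factors MITF and SOX10 drive the genes of the lineage. In the hairy skin of mice most melanocytes sit in hair follicles, and melanin is made and passed to the hair shaft during the growth phase of the hair cycle, called anagen.

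Skin was taken from 20 female C57BL/6 mice, 1 array per mouse, in 4 groups of 5. Mice of the IMO-8400 group, the IMO-3100 group and the saline group all received 3 µg of recombinant IL-23, a cytokine used here to induce psoriasis-like skin, by daily intradermal injection on days 1 to 4. On days 4 to 6 they were injected under the skin at a distant site with 15 mg/kg of IMO-8400 (an oligonucleotide antagonist of TLR7, TLR8 and TLR9), with 15 mg/kg of IMO-3100 (an antagonist of TLR7 and TLR9), or with the vehicle alone, which the sample records call saline. Naïve mice were the remaining group, and no injection is described for them, so that IL-23 and the injections cannot be told apart in any comparison with naïve skin. All skin was collected on day 7, from mice that were bought at 6 weeks of age and housed for 1 week before the study. The record of the series speaks of 2 doses of 1 antagonist, whereas the sample records name the 2 compounds. Replicate numbers 1 to 5 within a group only name the mice.

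Expression is given as the deposited log2 value after GCRMA normalization. Array medians lay between 6.086 and 6.286, and every array had the same lowest value, 2.02. Where all 5 mice of a group were under 3 at a probe-set, that group counts as near background, and the fold change is only a minimum ("at least"), computed after raising values under 3 to 3. Probe-sets were called where limma gave an FDR under 0.05 over all 30960 tested probe-sets and a fold change (FCH) over 2. Of the 17 pigment probe-sets 16 passed the filter for testing. The one that did not, 1425369_a_at of Sox10, lay at 2.02 on all 20 arrays. Naïve replicates 1, 2 and 3 had far higher hair follicle genes than the other mice, and the main results against naïve skin are also given without them. In whole skin, fewer melanocytes and less RNA per melanocyte cannot be told apart.

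Promoter windows were available from RefSeq (GRCm38.p6) for 5 of the 9 genes, as 250 bases before and 50 bases after a transcript start. The windows of Tyr, Tyrp1, Dct and Oca2 are shown because they hold the letters CATGTG, an E-box form that MITF is known to bind in pigment genes, in which the extended form TCATGTG is called the M-box. Capitals mark each CATGTG, or CACATG where it was matched on the opposite strand. Tyr lies at chr7:87493463-87493762 (minus strand), Tyrp1 at chr4:80833963-80834262 (plus strand), Dct at chr14:118052197-118052496 (minus strand) and Oca2 at chr7:56239509-56239808 (plus strand), and each is printed in the direction of its gene.
Tyr: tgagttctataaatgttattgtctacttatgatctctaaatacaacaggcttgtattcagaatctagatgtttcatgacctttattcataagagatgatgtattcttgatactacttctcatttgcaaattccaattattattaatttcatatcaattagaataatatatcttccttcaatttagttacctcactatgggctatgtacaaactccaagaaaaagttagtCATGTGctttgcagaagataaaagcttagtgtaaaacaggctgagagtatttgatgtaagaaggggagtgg
Tyrp1: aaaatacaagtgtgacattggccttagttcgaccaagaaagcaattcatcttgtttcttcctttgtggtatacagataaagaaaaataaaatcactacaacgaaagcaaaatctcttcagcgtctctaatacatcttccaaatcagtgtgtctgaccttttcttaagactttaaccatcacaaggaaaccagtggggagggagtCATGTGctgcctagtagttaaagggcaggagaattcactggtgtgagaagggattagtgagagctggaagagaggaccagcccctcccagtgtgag
Dct: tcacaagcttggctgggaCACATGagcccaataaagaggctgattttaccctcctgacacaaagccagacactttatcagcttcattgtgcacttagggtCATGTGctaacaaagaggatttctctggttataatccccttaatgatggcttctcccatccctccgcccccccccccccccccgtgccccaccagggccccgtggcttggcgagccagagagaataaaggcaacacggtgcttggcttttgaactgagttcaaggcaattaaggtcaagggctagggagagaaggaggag
Oca2: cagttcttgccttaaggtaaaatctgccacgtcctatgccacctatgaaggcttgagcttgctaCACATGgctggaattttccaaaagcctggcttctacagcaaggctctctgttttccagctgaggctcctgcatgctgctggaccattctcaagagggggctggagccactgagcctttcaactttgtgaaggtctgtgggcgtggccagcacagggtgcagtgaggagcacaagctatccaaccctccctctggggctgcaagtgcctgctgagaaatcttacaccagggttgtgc
On both strands, CATGTG was found in 4 of the 7 windows of the 5 genes, each of a different gene, against 14.2% of all 32851 windows of this length. TCATGTG, which contains CATGTG, was found in 3 of the 7 windows (Tyr, Tyrp1 and Dct), against 3.77% of all windows, and CACGTG in none of them, against 7.15%. The first base of CATGTG lay at -21 from the start in Tyr and at -46 in Tyrp1, while Dct held matches at -232 and -150. In Oca2 the match was at -186, on the opposite strand and without the leading T of the M-box. The 3 windows of Mitf held none of these letters. A match of letters is a description of the window and shows no binding.

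In naïve skin, most pigment genes differed more between mice than nearly all other transcripts did. Tyr, which encodes the rate-limiting enzyme of melanin synthesis, was at 12.24, 9.90, 7.14, 2.33 and 2.21 in naïve replicates 1 to 5 at its main probe-set 1417717_a_at. The values spanned 10.03 log2 units, from a strong signal in replicate 1 to near the lowest value of the array in replicates 4 and 5. The SD of Tyr in naïve skin was 4.48, and 0.197% of all tested probe-sets had an SD at least as large. For comparison, the median SD of all tested probe-sets was 0.30 in naïve mice. An SD above 1 in naïve skin was found in 12 of the 16 tested pigment probe-sets, against 8.19% of all tested probe-sets. The exceptions were both probe-sets of Mitf and both tested probe-sets of Sox10, with SD between 0.30 and 0.75. All probe-sets of Tyr, Slc45a2 and Oca2, and 1415862_at of Tyrp1, lay near the lowest value in every injected mouse. They passed the filter for testing only through naïve mice, so their large SD there follows in part from the filter. A shared ranking of the naïve mice, noticed in the values, had replicate 1 highest, then replicate 2, then replicate 3, with replicates 4 and 5 below them. It was found in 10 of the 16 pigment probe-sets, against 5.67% of all tested probe-sets. Because the ranking was read from these same probe-sets, some of them of 1 gene, the count is a description and no test. In IL-23-injected skin the SD was at most 1.20 in any group at any pigment probe-set. Tyr, Slc45a2 and Oca2 lay near the lowest value there, where an SD says little about evenness. At their main probe-sets Tyrp1, Dct, Pmel and Mlana had a lower SD in each injected group than in naïve skin. Sox10 (1451689_a_at) did not, with 1.20 with IMO-8400 against 0.75 in naïve skin. Of all tested probe-sets, 0.52% had an SD at least as large as this Sox10 value with IMO-8400. The share was 0.494% for Mlana with IMO-3100.

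**Figure D1:**
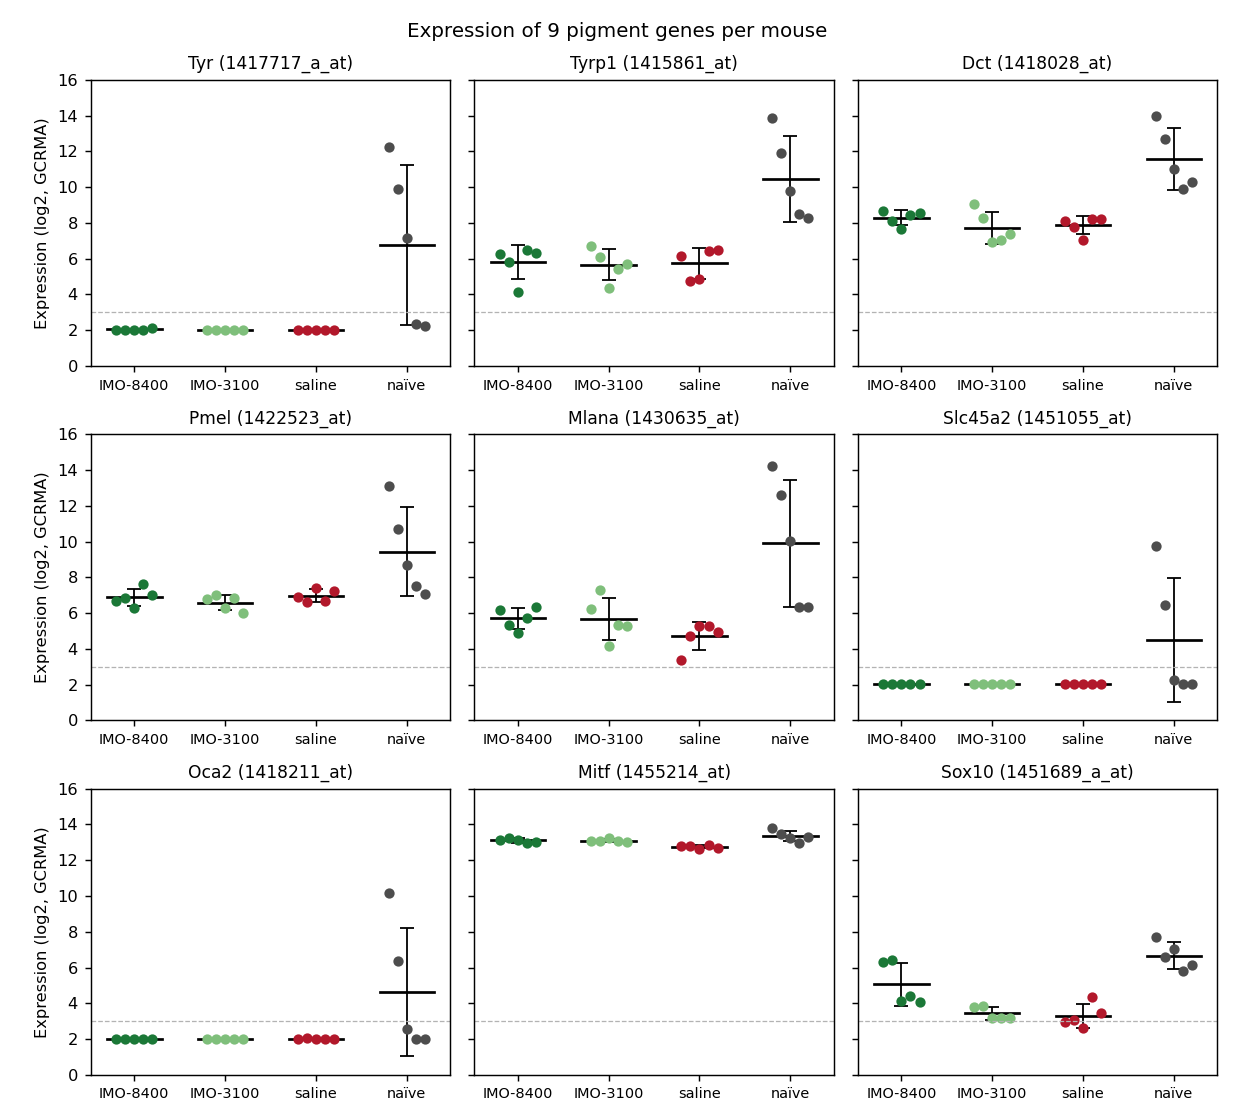
Expression of the 9 pigment genes (log2 GCRMA value, y axis) at the main probe-set of each, in 4 groups of 5 mice (x axis: IMO-8400, IMO-3100 and saline, all after IL-23, and naïve). Points are mice in the order of their replicate numbers, black bars are the mean and SD, and the dashed line at 3 marks the level under which a whole group was read as near background. Naïve values of Tyr span 2.21 to 12.24, while those of Mitf span 12.97 to 13.78.

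The 3 enzymes of melanin synthesis were lower in all IL-23-injected groups than in naïve skin. Tyr was at 2.02 in 14 of the 15 IL-23-injected mice and at 2.12 in IMO-8400 replicate 5, so that every injected mouse lay below every naïve mouse, although only 3 of the 5 naïve mice were above 3. Against the naïve mean of 6.76 ± 4.48 (SD, n = 5) this was at least 16.6-fold lower in each of the IMO-8400, IMO-3100 and saline groups (limma, adjusted p = 0.0201, 0.0129 and 0.00741). That fit shares 1 spread over the 4 groups, though Tyr varied almost only among naïve mice. In models of the 2 groups alone Tyr passed in no group (limma, adjusted p = 0.135, 0.107 and 0.0704). The size rested on naïve replicates 1, 2 and 3. Without replicates 1 and 2 the log2 difference was -1.85 with IMO-8400, -1.87 with IMO-3100 and -1.87 with saline, and only that of saline passed (adjusted p = 0.0912, 0.0659 and 0.0418), and without all 3 mice the naïve mean was 2.27 and Tyr was not tested. The other probe-sets of Tyr, 1448821_at and 1456095_at, were near the lowest value in every injected mouse. In naïve skin, 1448821_at was above 3 only in replicate 1 (8.19), and 1456095_at only in replicates 1 and 2 (9.28 and 6.27). Neither passed the test.

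Tyrp1 (1415861_at), which encodes a melanosomal enzyme that also stabilizes tyrosinase, was at 6.23, 5.82, 4.14, 6.46 and 6.33 in IMO-8400 mice, at 6.72, 6.10, 4.36, 5.39 and 5.71 in IMO-3100 mice and at 6.12, 4.76, 4.85, 6.44 and 6.48 in saline mice, against 13.88, 11.89, 9.78, 8.47 and 8.29 in naïve mice. The injected groups overlapped with each other and none overlapped with naïve skin. The log2 difference from naïve skin was -4.66 for IMO-8400, -4.80 for IMO-3100 and -4.73 for saline (SE 0.84 each, adjusted p = 0.00114, 0.000529 and 0.000234), which is 25.3-fold, 27.9-fold and 26.5-fold lower. All 3 probe-sets of Tyrp1 were called lower in each of these comparisons.

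Dct (1418028_at), which encodes dopachrome tautomerase, was at 8.67, 8.12, 7.66, 8.45 and 8.56 in IMO-8400 mice, at 9.03, 8.29, 6.92, 7.02 and 7.35 in IMO-3100 mice and at 8.12, 7.74, 7.01, 8.21 and 8.23 in saline mice, against 13.99, 12.71, 11.04, 9.87 and 10.29 in naïve mice. Here too no injected mouse reached the lowest naïve value. Dct was 9.77-fold lower with IMO-8400, 14.5-fold lower with IMO-3100 and 13.1-fold lower with saline than in naïve skin (log2 difference -3.29, -3.86 and -3.72, SE 0.61 each, adjusted p = 0.00141, 0.000229 and 0.000109). Without naïve replicates 1, 2 and 3, which carried the strongest pigment signal, Dct and Tyrp1 were still lower in all 3 groups. In the saline group the difference was then -2.22 for Dct and -2.65 for Tyrp1 (adjusted p = 0.0021 and 0.00523), and over all alternatives the adjusted p of that comparison ran from 3.73e-05 to 0.00485 for Dct and from 0.000105 to 0.00771 for Tyrp1.

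Genes for structural and membrane proteins of the melanosome were lower as well. Pmel (1422523_at), which encodes the fibril protein of the melanosome, was at 6.69, 6.82, 6.30, 7.61 and 6.99 in IMO-8400 mice, at 6.80, 7.01, 6.28, 6.84 and 6.02 in IMO-3100 mice and at 6.88, 6.60, 7.42, 6.67 and 7.25 in saline mice, against 13.12, 10.69, 8.71, 7.54 and 7.09 in naïve mice. Naïve replicates 4 and 5 lay close to the injected mice, and the IMO-8400 and saline groups overlapped with naïve skin. The log2 difference was -2.55 for IMO-8400, -2.84 for IMO-3100 and -2.47 for saline (SE 0.77 each, adjusted p = 0.0287, 0.0107 and 0.0143). Without naïve replicate 1 these differences were -1.62, -1.92 and -1.54, and without naïve replicates 1, 2 and 3 they were -0.43, -0.72 and -0.35 and did not pass. In models of the 2 groups alone Pmel passed in no group either (limma, adjusted p = 0.151, 0.0909 and 0.0897). Mlana (1430635_at), which encodes MART-1, a small membrane protein of melanosomes, was at 6.20, 5.36, 4.89, 5.71 and 6.35 in IMO-8400 mice, at 6.20, 7.28, 4.15, 5.32 and 5.29 in IMO-3100 mice and at 3.36, 4.70, 5.29, 5.29 and 4.96 in saline mice. The naïve values of Mlana were 14.19, 12.57, 10.00, 6.34 and 6.34, so that the 3 mice with high values lay far above all others while the remaining pair lay within the range of the antagonist groups. Mlana was 18.3-fold lower with IMO-8400, 18.9-fold lower with IMO-3100 and 36.1-fold lower with saline (adjusted p = 0.018, 0.0108 and 0.00147). The log2 differences of Mlana without naïve replicates 1, 2 and 3 were -0.64, -0.69 and -1.62, and none passed (adjusted p = 0.561, 0.524 and 0.0588). In models of the 2 groups alone Mlana missed the threshold with IMO-8400 and IMO-3100 (limma, adjusted p = 0.108 and 0.0896).

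The genes for melanosome transporters gave a signal in only some of the naïve mice. Slc45a2 (1451055_at), which encodes a transporter that keeps the melanosome at the pH tyrosinase needs, was at 9.72, 6.48, 2.24, 2.03 and 2.02 in naïve mice. Oca2 (1418211_at), which encodes a melanosomal membrane protein needed for the same purpose, was at 10.18, 6.37, 2.55, 2.02 and 2.02. In the 15 injected mice Slc45a2 was at 2.02 throughout and Oca2 at no more than 2.03. Set against these near-background groups, the naïve mean was at least 4.11-fold higher for Slc45a2 and at least 4.32-fold higher for Oca2, yet neither passed the test in any group (adjusted p between 0.0537 and 0.103). The signal rested on naïve replicates 1 and 2. Without naïve replicate 4 or without naïve replicate 5 both genes passed in all 3 groups. Without naïve replicate 3 they passed too, except Oca2 in the IMO-8400 group.

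The transcription factors had much less spread among naïve mice than the enzymes. Mitf, the central regulator of melanocytes, was at 13.15, 13.26, 13.14, 12.97 and 13.00 in IMO-8400 mice, at 13.05, 13.06, 13.22, 13.09 and 13.03 in IMO-3100 mice and at 12.78, 12.79, 12.65, 12.86 and 12.68 in saline mice, against 13.78, 13.45, 13.26, 12.97 and 13.30 in naïve mice (1455214_at). The saline mice were the lowest group and overlapped with no other group. Against naïve skin Mitf was 1.51-fold lower with saline (log2 difference -0.60, SE 0.11, adjusted p = 0.000394), below the fold change that a call requires. The differences of the antagonist groups from naïve skin were -0.25 for IMO-8400 and -0.26 for IMO-3100 (adjusted p = 0.134 and 0.0915). Mitf is also expressed by mast cells and macrophages, and markers of both cell types were measured. The mean of 8 mast cell genes was 9.05 to 9.60 with IMO-8400, 9.20 to 9.57 with IMO-3100, 9.80 to 10.36 with saline and 6.96 to 8.69 in naïve mice. The mean of 7 macrophage genes was 13.01 to 13.50, 13.41 to 13.80 and 13.31 to 13.57 in those injected groups and 11.47 to 13.64 in naïve mice. The part of these cells in the Mitf signal was not tested. The other probe-set of Mitf, 1422025_at, was also lowest with saline (-0.59 against naïve skin, adjusted p = 0.00325).

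Sox10 (1451689_a_at), a transcription factor that melanocytes share with Schwann cells, was at 6.33, 6.41, 4.12, 4.38 and 4.06 in IMO-8400 mice, at 3.81, 3.84, 3.20, 3.17 and 3.18 in IMO-3100 mice and at 2.94, 3.05, 2.61, 4.33 and 3.45 in saline mice, against 7.69, 6.59, 7.05, 5.78 and 6.12 in naïve mice. All naïve mice had a clear signal, including replicates 4 and 5, in which Tyr was near background. The mean was 5.06 ± 1.20 with IMO-8400, 3.44 ± 0.35 with IMO-3100 and 3.28 ± 0.66 with saline, against 6.64 ± 0.75 in naïve skin (SD, n = 5 each), and IMO-8400 replicates 1 and 2 lay within the naïve range. Sox10 was 3.00-fold lower with IMO-8400, 9.21-fold lower with IMO-3100 and 10.3-fold lower with saline than in naïve skin (log2 difference -1.58, -3.20 and -3.37, SE 0.48 each, adjusted p = 0.0286, 0.000132 and 2.6e-05). Without naïve replicates 1, 2 and 3 the differences were -0.89, -2.51 and -2.67, of which only that of IMO-8400 did not pass (adjusted p = 0.354, 0.00927 and 0.00276). The signal of the other tested probe-set, 1424985_a_at, was under 3 in every mouse but naïve replicate 1 (3.63).

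**Figure D2:**
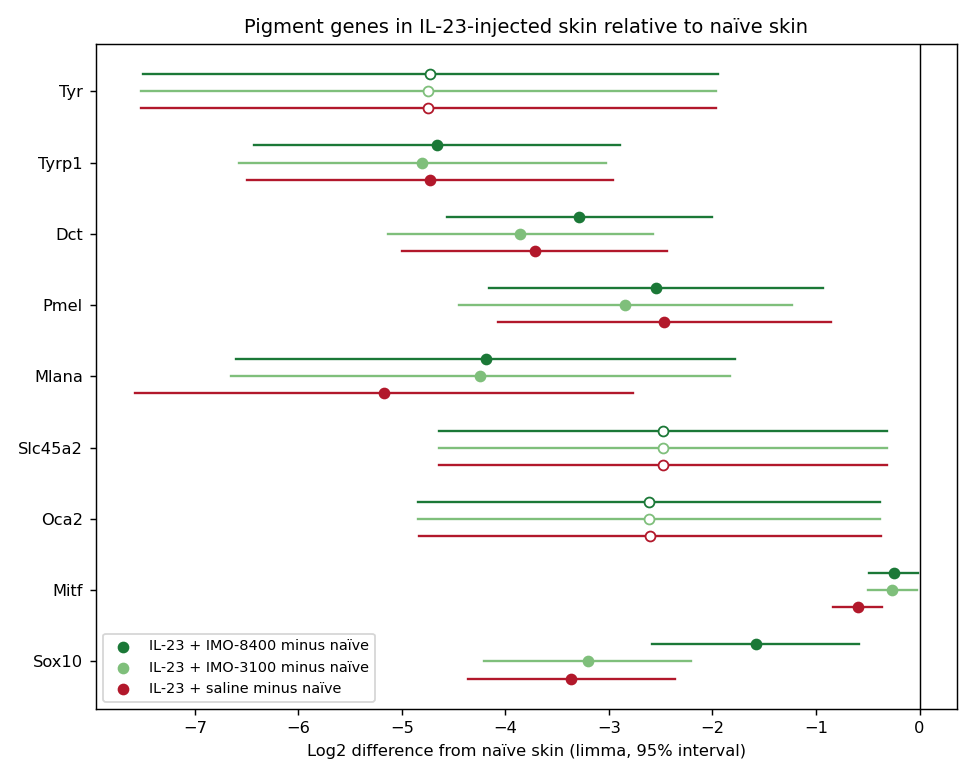
Log2 difference of each pigment gene (rows) between an IL-23-injected group and naïve skin (x axis), as fitted by limma with its 95% interval, for IMO-8400, IMO-3100 and saline (5 mice each). Open points mark genes near background in the injected group, whose fitted values are not lower bounds. Mitf is the gene with the smallest differences (-0.25, -0.26 and -0.60), and the intervals of the other genes are wider.

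Counted over probe-sets, 8 of the 16 tested were called lower with IMO-8400 than in naïve skin, against 2.43% of all tested probe-sets. The count was 8 with IMO-3100, against 4.55% of all, and 8 with saline, against 8.92%. By limma 0 were called higher in these comparisons, against 3.60%, 4.90% and 7.58% of all, and 0 were higher at an unadjusted p under 0.05. At the main probe-sets this made 6 of 9 genes lower in each comparison (Tyr, Tyrp1, Dct, Pmel, Mlana and Sox10), with a median log2 difference over the 9 genes of -2.61 for IMO-8400, -3.20 for IMO-3100 and -3.37 for saline. The median over all tested probe-sets was between -0.05 and -0.03 in these comparisons. Every injected value lay below every naïve value in 5 of 16 probe-sets with IMO-8400, against 5.53% of all tested probe-sets, in 7 with IMO-3100, against 8.48%, and in 8 with saline, against 13.3%. Probe-sets that passed the filter only through naïve mice were near the lowest value after injection and could not be called higher. The counts also depended on the naïve mice used. Without naïve replicates 1 and 2 they were 4 for IMO-8400, 6 for IMO-3100 and 7 for saline, of the 12 pigment probe-sets then tested, against 2.37%, 4.29% and 9.14% of all tested probe-sets. Without replicates 1, 2 and 3 they were 4, 5 and 5 of the 10 then tested, against 2.99%, 4.18% and 9.04%. These calls came from few genes, since all probe-sets of Tyrp1 count apart. They were Tyrp1 and Dct for IMO-8400, and Tyrp1, Dct and Sox10 for IMO-3100 and saline. Without replicates 1 and 2 the calls for IMO-8400 were likewise Tyrp1 and Dct only. The count for IMO-8400 was also 4 without naïve replicate 2 alone, when Tyr, Pmel, Mlana and Sox10 missed the threshold (adjusted p between 0.051 and 0.0753), and 3 in a model of those 2 groups alone. Pmel in the IMO-8400 group was no longer called without IMO-8400 replicate 1, 2, 3 or 5 either, nor was Sox10 without IMO-8400 replicate 3, 4 or 5 or without naïve replicate 1 or 3.

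**Figure D3:**
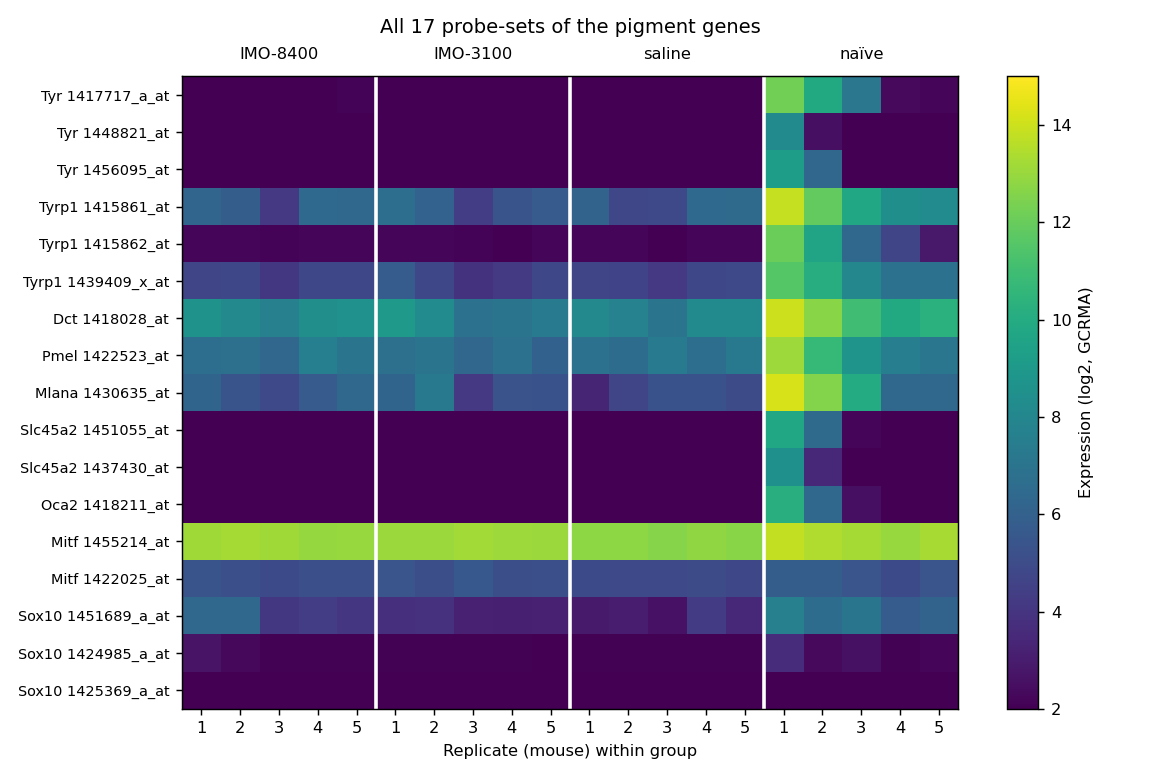
Expression (colour, log2 GCRMA value) of all 17 probe-sets of the pigment genes (rows, main probe-set first for each gene) in 20 mice (columns, replicate 1 to 5 within each group). Naïve replicates 1 and 2 are bright at most probe-sets, whereas the 2 probe-sets of Mitf keep an even colour over all mice.

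The naïve mice with strong pigment genes were also those with strong hair genes. The mean of the 9 pigment genes was 12.09, 10.07, 7.97, 6.37 and 6.41 in naïve replicates 1 to 5, and the mean of 22 genes of the hair shaft and the anagen follicle was 12.92, 11.56, 9.38, 4.35 and 3.07. The 3 mice highest in one mean were the 3 highest in the other, in the same order. In the injected groups the pigment mean was 5.15 to 5.92 with IMO-8400, 4.91 to 5.74 with IMO-3100 and 5.08 to 5.54 with saline, so that every injected mouse lay below the lowest naïve mouse. The hair mean was at most 2.77 in 14 of the 15 injected mice. The exception was IMO-8400 replicate 5, with a hair mean of 5.81. In this mouse the inner root sheath keratins Krt25 and Krt71 were at 12.44 and 9.46, while its pigment mean of 5.72 lay within the range of its group and Tyr was at 2.12. The rise was uneven over the hair genes. Msx2, Foxn1, Krt86 and Krtap3-1 stayed under 3 in this mouse (2.02, 2.41, 2.30 and 2.52). Hoxc13, at 6.86, lay within the range of the other IMO-8400 mice. Of the 22 hair genes 20 were called lower with IMO-8400, 21 with IMO-3100 and 21 with saline, with medians of -5.19, -5.71 and -5.68. Of all tested probe-sets 2.43%, 4.55% and 8.92% were called lower in these comparisons. The counts of lower hair genes were 0, 2 and 4 of 20 tested by limma without naïve replicates 1, 2 and 3 (0, 5 and 4 at an unadjusted p under 0.05). Without these mice 2.99%, 4.18% and 9.04% of all tested probe-sets were called lower, and no share was computed for the unadjusted p. The part of hair follicle activity in the pigment differences was not tested.

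**Figure D4:**
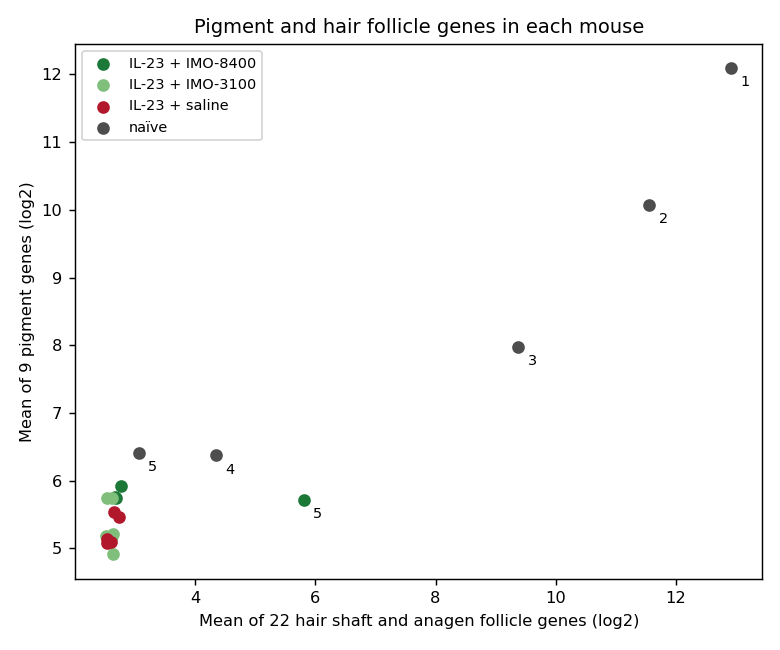
Mean of 9 pigment genes (y axis) against the mean of 22 hair shaft and anagen follicle genes (x axis), both log2 GCRMA values, with 1 point per mouse. Numbers are replicate numbers of the naïve mice and of IMO-8400 replicate 5, which lies at 5.81 in the hair genes and at 5.72 in the pigment genes.

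For the enzymes and melanosome proteins, no difference between an antagonist and saline passed the test. Between IMO-8400 and saline 1 of 16 pigment probe-sets was called, the main probe-set of Sox10, against 8.04% of all tested probe-sets. Between IMO-3100 and saline limma called 0, against 6.42% of all, with both probe-sets of Mitf at an unadjusted p under 0.05. Between IMO-8400 and IMO-3100 limma called 0, against 0.578%, with 1 probe-set (Sox10) at an unadjusted p under 0.05. The difference of IMO-8400 from saline was 0.07 for Tyrp1 (95% interval -1.70 to 1.84), 0.43 for Dct (-0.85 to 1.71), -0.08 for Pmel (-1.69 to 1.53) and 0.98 for Mlana (-1.43 to 3.39). For IMO-3100 these differences from saline were -0.07 (-1.84 to 1.70), -0.14 (-1.42 to 1.14), -0.38 (-1.99 to 1.23) and 0.93 (-1.48 to 3.34). Except for the lower end of Dct with IMO-8400, these intervals reach past a 2-fold change in both directions. Their width comes from a spread shared by all 4 groups, so the naïve mice widen them. For Pmel the SD was 0.48 with IMO-8400, 0.42 with IMO-3100 and 0.36 with saline, against 2.49 in naïve skin. Over all alternatives 0 pigment probe-sets were called between IMO-3100 and saline, and 0 or 1 between IMO-8400 and saline. Tyr, Slc45a2 and Oca2 were near background in all 3 injected groups, and no fold change is given for them.

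Sox10 was 3.44-fold higher with IMO-8400 than with saline (log2 difference 1.78, SE 0.48, adjusted p = 0.0101), and over all alternatives its adjusted p ran from 0.00353 to 0.0809. The groups overlapped by 1 mouse, since saline replicate 4 at 4.33 lay above 2 of the IMO-8400 mice. With values under 4 set to 4 the difference was 0.99 and no longer passed (adjusted p = 0.0809), and as the mean of both tested probe-sets it was 0.97, below the fold change of a call (adjusted p = 0.0258). IMO-8400 and IMO-3100, given at the same dose and on the same days, did not overlap in Sox10, and the difference of 1.62 (SE 0.48, 95% interval 0.62 to 2.62) missed the threshold (adjusted p = 0.0624). IMO-3100 differed from saline by 0.16 (-0.84 to 1.16). The higher IMO-8400 mean came mainly from replicates 1 and 2, at 6.33 and 6.41, with the other mice at 4.06 to 4.38. Pax3, a transcription factor of melanocyte precursors, was at 4.11 and 4.09 in the same mice and at 3.31 to 3.33 in the other IMO-8400 mice. Markers of Schwann cells moved in part with Sox10. Of 6 tested Schwann cell genes, 1 was called higher with IMO-8400 than with saline, the cadherin Cdh19, at 6.57, 6.87, 6.16, 6.56 and 5.48 with IMO-8400 against 4.46, 4.40, 3.82, 4.46 and 4.39 with saline (log2 difference 2.02, SE 0.29, adjusted p = 0.000131). In either direction 8.04% of all tested probe-sets were called between IMO-8400 and saline. Cdh19 was higher with IMO-3100 as well (1.23, SE 0.29, adjusted p = 0.00523), for which the Sox10 difference did not pass. The mean of 8 measured Schwann cell genes was 7.98 to 8.22 with IMO-8400, 7.92 to 8.09 with IMO-3100, 7.46 to 7.82 with saline and 8.01 to 8.40 in naïve mice. Their part in the Sox10 signal was not tested.

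Mitf was higher with both antagonists than with saline, by small amounts. The log2 difference from saline was 0.35 for IMO-8400 and 0.34 for IMO-3100 (SE 0.11 each, adjusted p = 0.028 and 0.0349), which is 1.27-fold and 1.26-fold and so under the fold change of a call. Neither antagonist group overlapped with saline. Over all alternatives the adjusted p ran from 0.00123 to 0.0757 for IMO-8400 and from 0.00295 to 0.0895 for IMO-3100. Between the antagonists Mitf differed by 0.01 (95% interval -0.22 to 0.25).

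Other genes of pigment cells were taken from 3 lists. Among signals and receptors of melanocytes, 2 of 6 tested genes were lower with IMO-8400 than in naïve skin, 3 with IMO-3100 and 4 with saline, and none was higher. Of all tested probe-sets 2.43%, 4.55% and 8.92% were lower in these comparisons, and 3.60%, 4.90% and 7.58% higher. Kitl, the growth factor that keeps melanocytes alive in the follicle, was at 9.22, 9.39, 9.39, 9.38 and 9.20 with IMO-8400, at 9.51, 9.18, 9.62, 9.57 and 9.77 with IMO-3100 and at 9.39, 9.18, 9.39, 8.85 and 9.18 with saline, against 11.32, 10.61, 10.28, 10.12 and 10.37 in naïve mice. No injected mouse reached the naïve range, and the log2 differences were -1.22, -1.01 and -1.34 (adjusted p = 0.000167, 0.000526 and 1.32e-05). Ednrb, the receptor for endothelins on melanocytes, was lower with saline (-1.22, SE 0.23, adjusted p = 0.000398). Edn3, an endothelin that acts on melanocyte precursors, was near background in all injected groups and at least 1.78-fold lower than in naïve skin (adjusted p = 0.0468, 0.0333 and 0.0199). Edn1, an endothelin made by keratinocytes, was lower with IMO-3100 and with saline (-1.17 and -1.10, adjusted p = 0.025 and 0.022). Mc1r, the receptor for melanocortins, followed the pattern of Oca2. It was at 8.96 and 5.27 in naïve replicates 1 and 2 and at 2.02 in all other mice, and did not pass the test (adjusted p = 0.128, 0.103 and 0.076). Kit, the receptor for the product of Kitl, was at 9.04, 7.80, 6.53, 7.40 and 6.81 in naïve mice and differed by -0.91 with saline, below the fold change of a call. With naïve replicates 1, 2 and 3 left out, limma called 1 of 5 tested genes lower with IMO-8400, 0 with IMO-3100 and 2 with saline (3, 3 and 4 at an unadjusted p under 0.05). Of all tested probe-sets 2.99%, 4.18% and 9.04% were called lower without these mice, and no share was computed for the unadjusted p. Kitl then differed by -0.93, -0.72 and -1.05 (adjusted p = 0.0011, 0.00594 and 0.000141), and was called only with saline, while Edn1 and Edn3 were called in no group. Ednrb was called with IMO-8400 and with saline without these mice (-1.10 and -1.51, limma, adjusted p = 0.0186 and 0.000911).

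Among transcription factors other than Mitf and Sox10, 2 of 8 were lower with IMO-8400, 3 with IMO-3100 and 4 with saline, and 1 was higher with saline. Of all tested probe-sets 2.43%, 4.55% and 8.92% were lower in these groups, and 7.58% were higher with saline. Pax3 was lower, with log2 differences of -1.18, -1.56 and -1.56 (adjusted p = 0.041, 0.00633 and 0.00334), and Lef1, an effector of Wnt signaling that is also active in the hair matrix, was lower too, with -1.84, -2.59 and -1.89 (adjusted p = 0.0156, 0.000993 and 0.00466). Lef1 was highest in naïve replicates 1 and 2, at 12.39 and 11.21. Sox9, which marks follicle stem cells and outer root sheath as well, was lower with IMO-3100 and with saline (-1.08 and -1.55, adjusted p = 0.002 and 3.6e-05). The fourth gene lower with saline was Irf4 (-1.16, adjusted p = 0.0303). The gene that rose was Tfec, a relative of Mitf expressed in macrophages, with a difference of 2.43 in saline mice (SE 0.69, adjusted p = 0.0079). With the same 3 naïve mice left out, Pax3 was called in no group (-0.15, -0.52 and -0.52, adjusted p = 0.695, 0.101 and 0.0613). Lef1 was then called only with IMO-3100 (-1.37, adjusted p = 0.00175), Sox9 and Irf4 only with saline (-1.12 and -1.88, adjusted p = 0.00167 and 0.00211), and Tfec in no group.

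Genes of melanosome formation and transport, most of which serve lysosome-related organelles in many cell types, did not follow the pigment genes. Of 22 tested genes, 1 was lower in each of the IMO-8400, IMO-3100 and saline groups and 2 were higher with saline, and the median differences of 0.18, 0.36 and 0.25 were above 0. Of all tested probe-sets 2.43%, 4.55% and 8.92% were lower, and 7.58% were higher with saline. Counts of 1 or 2 genes do not set the list apart from these shares. The gene that fell was Trpm1, a channel gene that MITF is known to activate in melanocytes, with log2 differences of -2.39, -2.25 and -2.19 (adjusted p = 0.0124, 0.0111 and 0.00741). Its naïve values were 8.59, 7.19, 4.63, 4.15 and 4.18, against 2.62 to 3.64 in all injected mice. The differences of Trpm1 without naïve replicates 1, 2 and 3 were -0.81, -0.67 and -0.61, below the fold change of a call (adjusted p = 0.00914, 0.0232 and 0.0183). Gpr143, a receptor of the melanosome membrane, was at 9.06 and 5.47 in naïve replicates 1 and 2 and under 3 in every other mouse. The gene that rose most was Slc7a11, the cystine transporter that supplies the sulphur of the yellow pigment pheomelanin and that many stressed cells use. It was at 7.03, 7.72, 8.68, 6.79 and 7.60 in saline mice, against 2.80, 2.02, 2.02, 2.02 and 2.02 in naïve mice, at least 23.6-fold higher (adjusted p = 3.84e-08). With the antagonists it lay at 2.49, 2.18, 3.78, 2.02 and 3.56 (IMO-8400) and at 2.02, 2.49, 2.04, 4.06 and 2.49 (IMO-3100), so that no mouse of either group came near saline. The log2 difference from saline was -4.76 for IMO-8400 and -4.94 for IMO-3100 (SE 0.42 each, adjusted p = 1.19e-06 and 7.39e-07). The other gene that rose was Tpcn2, a cation channel of melanosomes and lysosomes (1.33 with saline, adjusted p = 0.000433). Slc7a11 was still called with saline without those 3 mice (adjusted p = 5.36e-06), while Tpcn2 was not (0.87, adjusted p = 0.0275). Between the antagonists 1 gene of this list differed, Hps5, lower with IMO-8400 than with IMO-3100 (-1.23, SE 0.18, adjusted p = 0.00237). Of all tested probe-sets 0.578% were called between the antagonists.

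**Figure D5:**
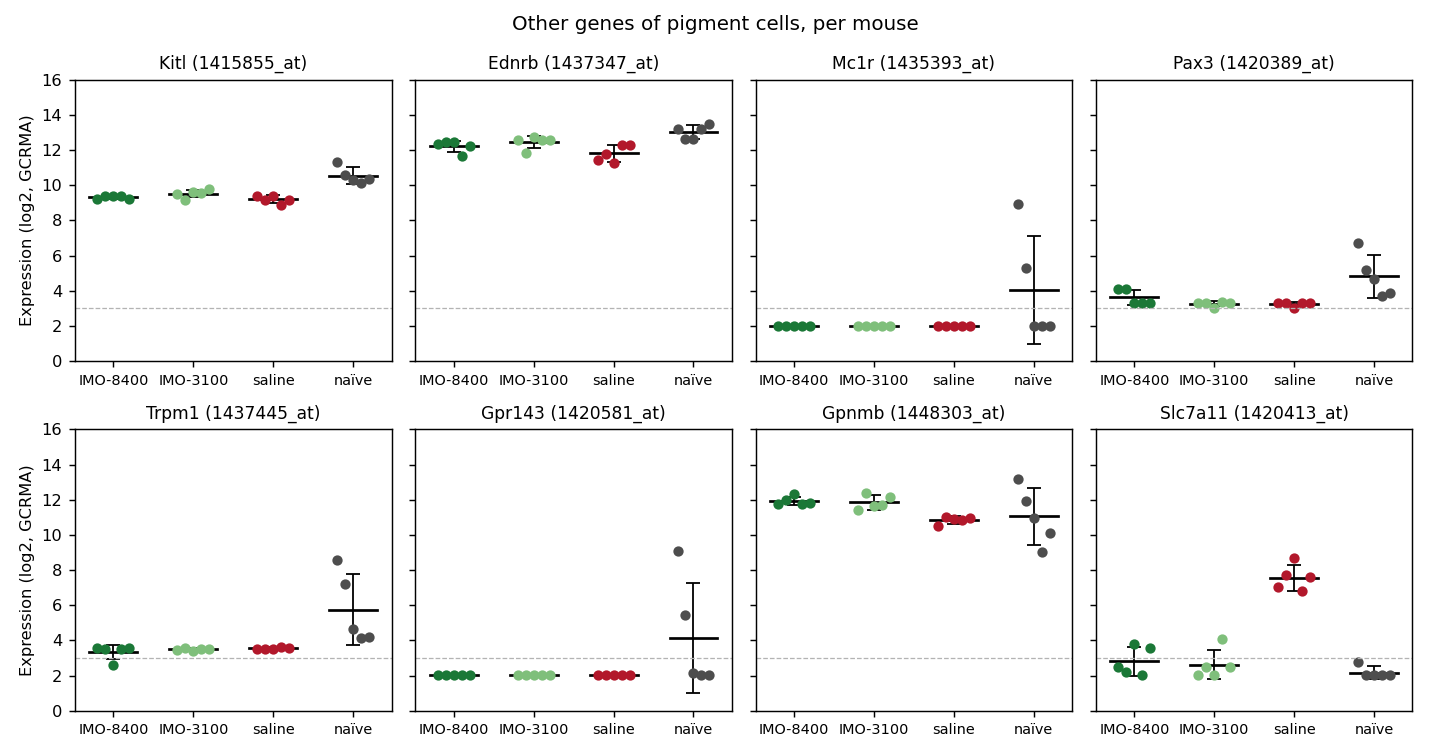
Expression (log2 GCRMA value, y axis) of 8 other genes of pigment cells in 4 groups of 5 mice (x axis, as for the pigment genes), with mice as points and the mean and SD as black bars. Mc1r and Gpr143 exceed 3 only in naïve replicates 1 and 2, and Slc7a11 lies between 6.79 and 8.68 in saline mice alone.

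Over all 20 mice, the genes most like the mean of the pigment genes by Pearson correlation were Rnf182 (r = 0.99), Hoxb5os, Scube3, Igfals, Crym, Trpm1, Rhpn2, Krt82, Msx2 and Capn8 (r = 0.97). They include the hair cuticle keratin Krt82 and Msx2, a homeobox factor of the hair matrix. Krt82 was at 2.02 in all injected mice and reached 11.67 in naïve skin, and Rnf182 lay between 2.80 and 4.57 in injected mice and between 4.53 and 11.20 in naïve mice. These correlations are a description, since the 20 mice share the 4 groups and the spread of the naïve mice. Over the 15 injected mice alone the 10 most similar genes were others, led by Reep5 (r = 0.90), Tcf7l2, Col8a2, Echdc2 and Tekt2 and followed by Dkk3, Trmt1, Nfatc1, C9 and Fbxo36 (r = 0.85). None of these 10 stood among the 10 over all mice.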

How the data were processed

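Skin RNA was hybridised to 20 Affymetrix mouse4302 arrays, 1 per mouse, so that the number of arrays limits the precision. The authors checked the scans with Harshlight and arrayQualityMetrics and deposited GCRMA values on the log2 scale, which were taken as given. No source used here gives the GCRMA version. Of all probe-sets, 34958 have 1 symbol in the platform annotation, 932 several and 9211 none, and all 17 pigment probe-sets matched RefSeq by Entrez identifier and symbol.

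Following the study's methods, a probe-set was tested if at least 3 arrays exceeded 2 and its SD exceeded 0.1, which left 30960. Because no value was 2 or less, only the SD removed probe-sets. For each, limma 3.58.1 under R 4.3.3 (lmFit, eBayes) estimated the 4 group means, with Benjamini-Hochberg adjustment in each of 6 comparisons. The procedure was tested on simulated data with the same spread in every group and no lowest value. Changes were set there only at probe-sets of medium signal and small spread. Most pigment probe-sets are unlike these, so the simulation does not cover them. Comparisons with naïve skin share the naïve arrays, and those with saline share the saline arrays. Promoter letters were searched in Python 3.11.15. Replicates are separate mice, numbered in record order.

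The genes named are all pigment genes, up to 4 called genes with the largest change in each other list, members singled out as not passing, and the 10 genes most like the pigment mean. Krt71, Krt86, Foxn1, Hoxc13, Krtap3-1 and Gpnmb, outside this rule, were picked with their values in view. The members, lists and tests were chosen with earlier results of these data known. The alternatives were dropping the filter, requiring 5 arrays over 4, raising values under 4 to 4, a shared 75th percentile, quantile normalization, fitting only the groups compared, a prior with trend and robust estimation, array weights, leaving out each mouse, leaving out naïve replicates 1 and 2, and averaging all probe-sets of a gene. Leaving out naïve replicates 1, 2 and 3, and leaving out naïve mice for the other lists, were chosen after seeing the data.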

Additional observations from a re-analysis of the deposited data

Results flagged for a closer look

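Single mice that lay far from the other mice of their group were looked for by Dixon's criterion in 72 groups of 5 mice, of which chance alone marks about 1 in 20, and 7 were found. At 2 probe-sets of Tyrp1, IMO-8400 replicate 3 was lowest in its group, at 4.14 with the others at 5.82 to 6.46 (1415861_at) and at 4.11 with the others at 4.72 to 4.83 (1439409_x_at). The mean of the 9 pigment genes in this mouse was 5.15, with the other IMO-8400 mice at 5.72 to 5.92. In naïve skin, replicate 1 stood apart at 8.19 in Tyr (1448821_at), with the others at 2.02 to 2.55, and at 8.52 in Slc45a2 (1437430_at), with the others at 2.02 to 3.45. The same naïve mouse had the highest mean of the genes of melanosome formation and transport, 8.79, with the others at 7.70 to 7.96. IMO-8400 replicate 5 was highest in its group in the mean of the hair shaft and anagen follicle genes, at 5.81 with the others at 2.60 to 2.77.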

How the results depend on the processing

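The number of arrays and the spread of the naïve mice limit these results, and signals near the lowest value of the arrays have no measured fold change. Counts of pigment probe-sets lower than in naïve skin (8 for each group) were 4 for IMO-3100 and 3 for IMO-8400 in models of 2 groups alone, 4 for IMO-8400 without naïve replicates 1 and 2, and 4 for IMO-8400, 5 for IMO-3100 and 5 for saline without naïve replicates 1, 2 and 3. With single mice left out they ran from 4 to 10 for IMO-8400, from 8 to 11 for IMO-3100 and from 8 to 11 for saline. Sox10 was no longer called between IMO-8400 and saline with values under 4 set to 4 (0 probe-sets called) or as the mean of its probe-sets (0.97), and with array weights it was called between IMO-8400 and IMO-3100 (1 probe-set, 1.67, adjusted p = 0.0148, where the range over all alternatives was 0.0148 to 0.17). At the main probe-sets all differences from naïve skin kept their direction under every alternative that could be fitted. Calls of Pmel, Mlana and Tyr were lost under 9, 4 and 4 alternatives for IMO-8400, under 2, 3 and 2 for IMO-3100 and under 3, 1 and 1 for saline, and that of Sox10 under 12 for IMO-8400 only. At the other probe-set of Mitf the difference turned positive without naïve replicates 1, 2 and 3 (0.000648 for IMO-8400 and 0.11 for IMO-3100), as did that of 1424985_a_at of Sox10 for IMO-8400 (0.09).

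Reversals of sign concerned 29 values, none of which passed the test, in comparisons among the injected groups. For IMO-8400 against saline, Tyrp1 was -0.0385 under quantile normalization and -0.17 to 0.48 with single mice left out, and Pmel -0.264 to 0.0628. For IMO-3100 against saline, Tyrp1 was 0.0076 with array weights and -0.34 to 0.25 with single mice left out, Dct -0.468 to 0.0586, and Sox10 -0.0665 with values under 4 set to 4 and -0.0051 to 0.425 with single mice left out. For IMO-8400 against IMO-3100, Tyrp1 was -0.18 to 0.55, Mlana -0.32 to 0.46 and Mitf -0.0263 to 0.0468 with single mice left out. Mlana was -0.0428 under quantile normalization, and Mitf -0.0165 with a common 75th percentile and -0.0466 as the mean of its probe-sets. The cause of these changes was not tested. The counts differed by no more than 1.5 times under the other alternatives.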

Other observations

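Genes shared by pigment and immune cells did not all follow the pigment enzymes among the naïve mice. Gpnmb, which macrophages also express, was highest in replicate 1, at 13.21, 11.96, 10.98, 9.04 and 10.09 in naïve replicates 1 to 5. Tfec was at 4.77, 6.58, 8.27, 9.81 and 9.88 in naïve replicates 1 to 5, lowest where Tyr was highest, and at 8.06 to 9.54 with IMO-8400, 9.23 to 9.71 with IMO-3100 and 9.77 to 10.78 with saline. The means of the macrophage genes and of the mast cell genes were lowest in naïve replicate 1 as well, at 11.47 and 6.96, with the other naïve mice at 12.78 to 13.64 and at 8.18 to 8.69. Irf4, which acts in melanocytes and in lymphocytes, was at 10.22 in naïve replicate 1 and at 12.08 to 12.74 in the other naïve mice. Of 8 tested mast cell genes 4 were higher with IMO-8400, 3 with IMO-3100 and 5 with saline than in naïve skin, and 2 were lower with each antagonist than with saline. Among 7 macrophage genes 2, 3 and 2 were higher in these groups, and 1 (Cd163) was lower with saline. Of all tested probe-sets 3.60%, 4.90% and 7.58% were higher than in naïve skin, and 8.92% were lower with saline. In either direction 8.04% were called between IMO-8400 and saline and 6.42% between IMO-3100 and saline. The counts of higher genes without naïve replicates 1, 2 and 3 were 4, 3 and 4 of 8 for mast cells and 0, 2 and 1 of 6 for macrophages by limma (for macrophages 2 in each group at an unadjusted p under 0.05), with Cd163 lower in all 3 groups. The share of all tested probe-sets higher without these mice was not computed, by limma calls or by unadjusted p. These counts therefore cannot be read as a result about the 2 cell types. Called lower without these mice were 2.99%, 4.18% and 9.04% of all tested probe-sets. Gpnmb, not called against all naïve mice, was higher by 2.37, 2.29 and 1.28 without these mice. The 3 mice left out were those with the highest Gpnmb in naïve skin, so leaving them out by itself moved the difference upward. What these values share with the pigment genes was not tested.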
